A study of Homo sapiens with 4 samples.

Results

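The 41 genes described here encode proteins of synaptic vesicles and of the machinery that releases them. They were chosen by symbol, as a list of known members, among the 36601 features of the count matrices, and all 41 were found. Single-nucleus RNA sequencing was performed on enteric ganglioids, free-floating clusters of enteric neurons with progenitor cells that were grown from the human embryonic stem cell line H9. The 4 samples were 2 controls and 2 ganglioid samples that had received 2 µM PP121, which blocks a number of receptor tyrosine kinases, from day 15 to day 20 of differentiation; the labels give no deletion or transgene and a single cell line for all 4. Nuclei of replicate 1 are dated day 42 and those of replicate 2 day 38 in each group, and neither date matches the single day that the methods give for all samples. A further column of sample names in the deposited annotation goes against the labels for both controls: it calls control replicate 1 the second control of stage 1 and control replicate 2 the first control of stage 2, while the names of both PP121 samples match. The labels, which pair the samples as the days do, were used throughout, and the count for PP121 in neurons is also given with the numbers of that column and without control replicate 2. Each sample was a pool of several ganglioids. The samples are labelled as separate differentiation replicates.

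Neurons release transmitter when a vesicle protein of the SNARE family (synaptobrevin) zips together with SNARE partners of the plasma membrane (SNAP25 and a syntaxin), which pulls vesicle and cell membrane into fusion. Complexins and synaptotagmins hold the assembled complex ready and make its last step depend on calcium, and scaffold proteins of the active zone (RIM, Munc13, bassoon, piccolo, ELKS) dock and prime vesicles beside calcium channels. Enteric neurons signal through clear vesicles and through dense core vesicles that carry peptides, while nitric oxide, the transmitter of nitrergic neurons, is made on demand and is not stored in vesicles.

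The matrices were summed over the nuclei that the authors annotated, 14812 of 25306. Values are listed throughout in the order control replicate 1, control replicate 2, PP121 replicate 1 and PP121 replicate 2. The annotated nuclei held 34123759, 24850084, 33970729 and 23348045 UMIs (unique transcript molecules). Enteric neurons numbered 2301, 1250, 2030 and 976 nuclei with 18951821, 11088890, 16833351 and 8755285 UMIs. A list of neuron markers summed to between 7822 and 10785 CPM (UMIs scaled to a total of 1000000 UMIs over the same nuclei) in the neurons of the 4 samples and to at most 3025 CPM in any other class. The epithelial class reached 31 to 60 CPM of its own 3 markers, and mesenchymal nuclei 14 to 104 CPM of them, so that its label was only weakly borne out. Pairs of samples shared between 0 and 8 barcodes. In control samples 13.1% and 18.1% of the nuclei annotated as enteric neurons lay nearest to the mean profile of progenitor 1, against 3.30% and 4.41% in PP121 samples. For progenitor 2 the shares went the other way, 2.30% and 4.96% in controls against 4.58% and 11.0% in PP121 samples. Comparisons by deposited class carry these differences.

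The release genes made up a larger share of RNA in enteric neurons than in progenitors. Together they accounted for 0.663%, 0.651%, 0.707% and 0.734% of neuronal UMIs, against 0.255% to 0.322% in progenitor 1 and 0.356% to 0.410% in progenitor 2. With every nucleus thinned to 2000 UMIs, a neuron held a mean of 7.62, 7.36, 8.10 and 7.72 of the 41 genes, against 3.68, 3.31, 4.05 and 3.78 in a progenitor 1 nucleus and 4.73, 4.23, 4.63 and 4.18 in a progenitor 2 nucleus. The classes are clusters of these same nuclei, so their differences are described and were not tested. A total of 28 of the 41 genes had their highest mean CPM in neurons, but the share of all genes that did so was not counted. In all 4 samples 30 of 41 were higher in neurons than in both progenitor classes combined, where 26.7% of 20560 genes were. The median ratio of neurons to progenitors was 2.55 for the 41 genes and 0.970 for all genes.

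**Figure D1:**
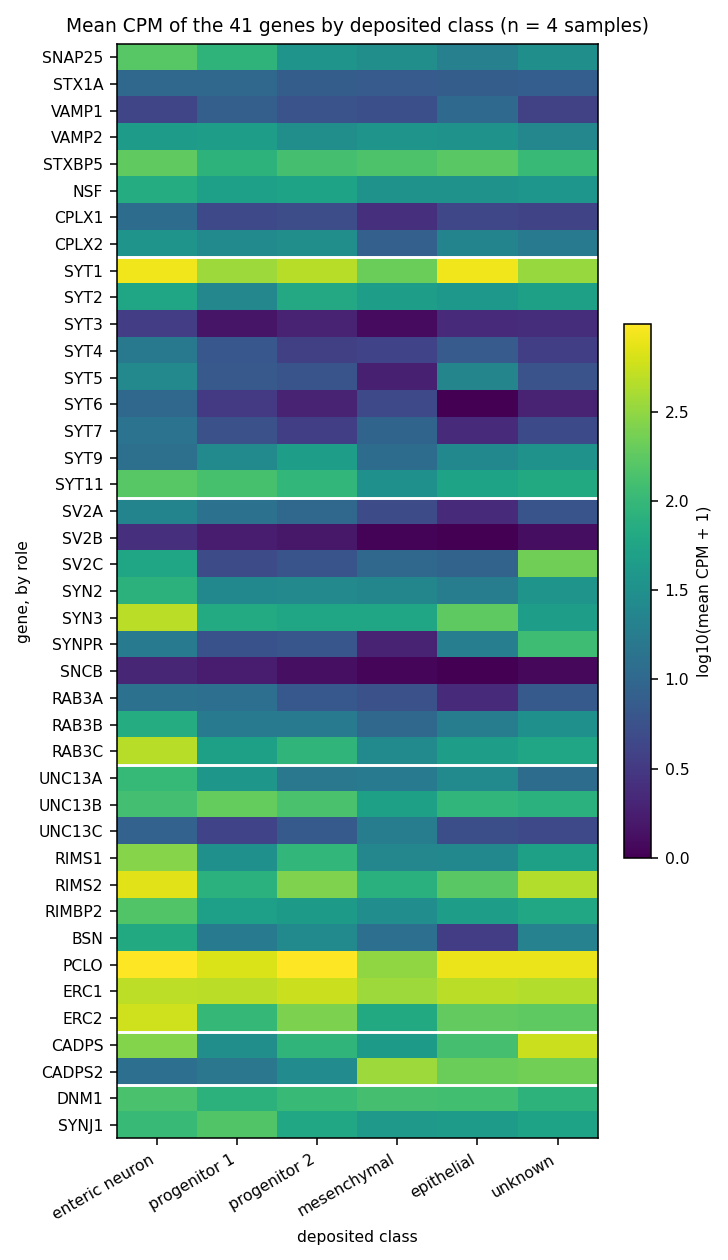
Mean CPM of each of the 41 genes (rows, grouped by role) in each deposited class (columns), on a log10 scale after adding 1, n = 4 samples. RAB3C, SYN3, ERC2 and RIMS1 are brightest in the neuron column, whereas CADPS2 is brightest in mesenchymal nuclei and SV2C, SYNPR and CADPS in the class named unknown.

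Among SNARE proteins and their regulators, SNAP25, the plasma membrane SNARE, stood at 174, 159, 161 and 149 CPM in neurons, and the neurons of every sample lay above every other class and sample. The fusion ATPase NSF, which takes spent SNARE complexes apart, and complexin CPLX1 did the same. STXBP5 (tomosyn), an inhibitor of SNARE assembly, stood at 200, 163, 196 and 173 CPM in neurons with a mean of 183 CPM, close to the 168 CPM of the epithelial class. VAMP2, the main synaptobrevin, was about as high in progenitor 1, at a mean of 44.6 CPM, as in neurons, at 43.4 CPM. VAMP1 was below the progenitor level in all 4 samples, with a mean of 3.25 CPM in neurons.

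Of the 9 synaptotagmins, vesicle proteins of which several sense calcium, 8 were higher in neurons than in progenitors in all 4 samples. SYT1, the fast calcium sensor, stood at 778, 755, 779 and 1074 CPM in neurons, a mean of 846 CPM beside 852 CPM in the few epithelial nuclei. SYT11, which does not bind calcium, stood at 151, 162, 163 and 179 CPM. SYT6 had the widest ratio of this family, between 3.93 and 13.3 over the samples, at a mean of only 9.01 CPM. SYT9 ran the other way, with 45.1 CPM in progenitor 2 against 11.6 CPM in neurons.

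The vesicle proteins held the 3 genes whose ratio of neurons to progenitors was at least 4 in all 4 samples (1.71% of all genes), SV2C, SYN3 and RAB3C. SYN3, a synapsin that tethers vesicles, stood at 493, 387, 493 and 538 CPM in neurons, and RAB3C, a vesicle GTPase, at 310, 434, 542 and 569 CPM. The vesicle glycoprotein SV2C was 9.11 to 24.0 times as high in neurons as in progenitors, but its highest mean, 218 CPM, was in the class named unknown, where it stood at 377, 114, 238 and 144 CPM. SYNPR (synaptoporin) was also highest there, at 246, 48.7, 142 and 22.3 CPM. The unknown class numbered 176, 60, 211 and 121 nuclei and held 5 to 10 CPM of a list of neuroendocrine markers.

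At the active zone, RIMS1, RIMBP2, BSN, ERC2 and UNC13A were above every other class and sample in neurons. PCLO (piccolo), a giant scaffold protein, stood at 1156, 1083, 898 and 763 CPM in neurons and at a mean of 963 CPM in progenitor 2, so it did not set neurons apart. RIMS2, a RIM scaffold, stood at 521, 641, 764 and 926 CPM. UNC13B and ERC1, the widely expressed relatives of UNC13A and ERC2, were below the progenitor level in all 4 samples, and UNC13B reached 190 CPM in progenitor 1 against 124 CPM in neurons.

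The pair of genes for priming dense core vesicles parted. CADPS stood at 245, 222, 326 and 298 CPM in neurons, with ratios to progenitors of 2.64 to 6.30, whereas CADPS2 stood at 7.49, 10.7, 9.03 and 17.7 CPM and was below the progenitor level in all 4 samples. Mesenchymal nuclei held 36.4, 169, 97.6 and 1122 CPM of CADPS2, in 40, 408, 33 and 422 nuclei. Of the endocytic genes, DNM1 (dynamin 1, which cuts vesicles from the membrane) stood at 142, 123, 143 and 127 CPM in neurons and SYNJ1 (synaptojanin 1, which uncoats them) at 115, 121, 95.2 and 83.4 CPM. A matrix row antisense to SNAP25, SNAP25-AS1, held 354, 307, 376 and 302 CPM in neurons; whether strand was used in counting is not stated, so the reads of such pairs cannot be told apart.

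Whether PP121 changed the release genes in enteric neurons depended on whether the replicate number was used. Without it, edgeR's quasi-likelihood test called 0 of the 41 genes and 0% of 21243 genes, DESeq2 also called 0 of the 41, and 9 of the 41 had an unadjusted p under 0.05 (12% of all genes). With the replicate as a block, 14 of 41 passed (7 higher and 7 lower), where 14.8% of all genes did, 7.97% higher and 6.86% lower. DESeq2 with the same block called 5, which were RIMS2, RAB3C, CADPS, VAMP2 and PCLO. With the replicate numbers of the annotation's sample names as the block, 0 passed (5 with an unadjusted p under 0.05; 0.00471% of all genes passed). Without control replicate 2 and without a block 0 passed, and the 14 genes kept their directions. The median log2 fold change of the 41 genes was 0.09 without the block, and that of all genes was −0.00. Both samples of PP121 lay above both controls for 14 genes (22.5% of all genes) and below for 9 (23.1%). With nuclei assigned to their nearest class profile, made without the 41 genes, and the block, 10 passed (7.88% of all genes): SYT1, RIMS1, RAB3A, UNC13A and SYNJ1 no longer passed and SV2C did, at −0.40. With PP121 replicate 1 left out and no block, 6 passed.

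The genes higher after PP121 with the block were RAB3C, RIMS2, SYT2, CADPS, ERC2, SYT1 and RIMS1. RAB3C rose from 310 and 434 CPM in controls to 542 and 569 CPM (log2 fold change 0.64, SE 0.09). RIMS2 rose from 521 and 641 to 764 and 926 CPM (0.58, SE 0.08). Both genes were also higher in replicate 2 than in replicate 1 within each treatment. SYT2, a calcium sensor of fast synapses, rose from 50.2 and 46.5 to 62.7 and 73.1 CPM (0.52, SE 0.11), and CADPS from 245 and 222 to 326 and 298 CPM (0.46, SE 0.09). ERC2, an ELKS scaffold, rose from 535 and 542 to 631 and 690 CPM (0.33, SE 0.08). The groups do not overlap for any of these 5 genes. SYT1 at 0.29 and RIMS1 at 0.28 passed more narrowly, with edgeR adjusted p of 0.0398 and 0.0350, and SYT1 in PP121 replicate 1 (779 CPM) barely exceeded control replicate 1 (778 CPM).

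**Figure D2:**
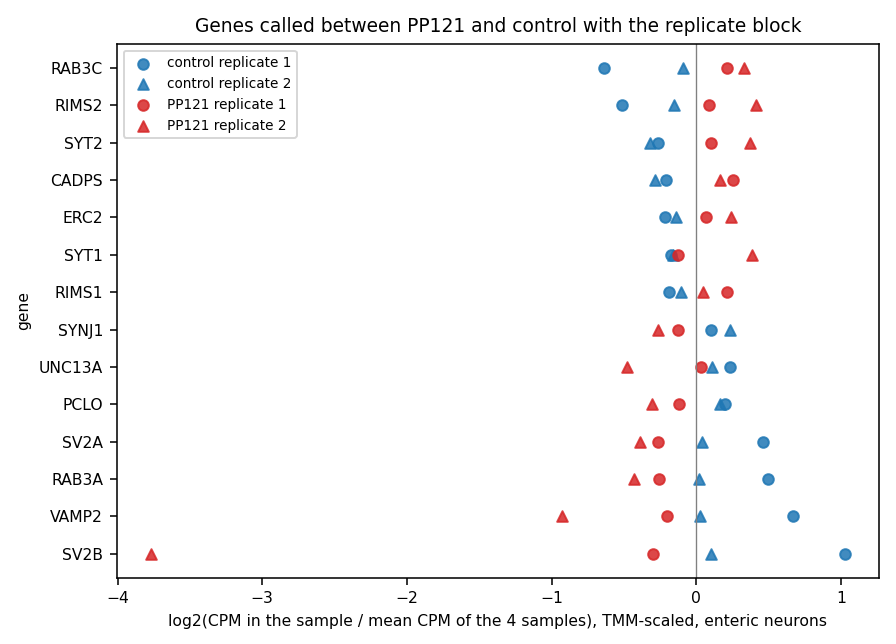
The 14 genes called between PP121 and control enteric neurons with the replicate block (rows); points show log2 of the TMM-scaled CPM of each sample over the mean of the 4 samples, blue for control and red for PP121, circles for replicate 1 and triangles for replicate 2. Red points lie right of blue for RAB3C, RIMS2, SYT2, CADPS, ERC2, SYT1 and RIMS1 and left of blue for the other 7 genes, and SV2B in PP121 replicate 2 rests on 1 UMI.

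The genes lower after PP121 with the block were SV2B, VAMP2, RAB3A, SV2A, PCLO, UNC13A and SYNJ1. VAMP2 fell from 70.7 and 43.5 CPM to 37.5 and 21.9 CPM (log2 fold change −0.91, SE 0.12). Replicate 2 was lower than replicate 1 in both groups, so control replicate 2 and PP121 replicate 1 were closer to each other than either pair of replicates. RAB3A, the main vesicle GTPase of its family, fell from 17.4 and 12.0 to 9.98 and 8.57 CPM (−0.63, SE 0.18), and SV2A, a vesicle glycoprotein, from 30.3 and 21.7 to 17.8 and 15.8 CPM (−0.60, SE 0.14). PCLO fell from 1156 and 1083 to 898 and 763 CPM (−0.39, SE 0.08). SV2B, a relative of SV2A, was counted with 64 and 19 UMIs in control and 22 and 1 UMIs in PP121 neurons, so its log2 fold change of −1.73 (SE 0.44) rests on few molecules. The priming factor UNC13A and SYNJ1 differed by −0.39 and −0.36.

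None of the other 7 genes of SNARE proteins and their regulators passed with the block. SNAP25 differed by −0.07 (SE 0.09), STXBP5 by 0.07 (SE 0.09), STX1A by −0.20 (SE 0.19) and CPLX2 by 0.30 (SE 0.12). STXBP5-AS1, antisense to STXBP5, stood at 114, 62.3, 35.6 and 19.3 CPM. SYN3 differed by 0.27, DNM1 by 0.07, SYT11 by 0.16 and CADPS2 by 0.53, and none of these passed. Among 77 tested genes of a further list of 78 genes of docking, fusion and vesicle recycling, 3 passed upward and 5 downward with the block, where 14.8% of all genes passed in either direction. Of these SYT17 differed by 0.97, the liprin PPFIA4 by 0.49 and the scaffold CASK by 0.26, and RAB27B, a GTPase of granule docking, by −0.49.

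Other features of the neurons differed between the treatments within each replicate. Glutamatergic nuclei were 25.0% and 44.2% of subtyped control neurons and 36.2% and 66.1% of those after PP121. Catecholaminergic nuclei were 18.2% and 37.6% against 35.0% and 43.8%. Both shares were also higher in replicate 2 than in replicate 1 of each group, and control replicate 2 exceeded PP121 replicate 1 in both. The serotonergic share, at 24.6%, 19.2%, 39.2% and 22.0%, also rose with PP121 in each replicate. Lower in each replicate were the cholinergic share, at 33.6%, 20.4%, 33.2% and 10.2%, and the nitrergic share, at 19.6%, 18.6%, 19.0% and 9.95%. For these falls the gap was small in replicate 1. The GABAergic share, at 45.2%, 26.7%, 45.5% and 17.3%, had no common direction. Mitochondrial transcripts were 0.0364% and 0.0384% of UMIs in control neurons and 0.0160% and 0.0202% after PP121, and MALAT1, a nuclear RNA, was 6.14% and 5.71% against 4.06% and 3.90%. Differences of the 41 genes also followed gene span, the distance from the start to the end of a gene in RefSeq (GRCh38.p14). The 11 genes under 50 kb had a median log2 ratio of −0.28 and the 17 genes of at least 200 kb one of 0.23, beside −0.12 and 0.13 over all genes of at least 10 CPM in those spans. Spearman's rho across the 41 genes was 0.58, and 0.43 and 0.45 within replicates 1 and 2, beside 0.32 across the genes of at least 10 CPM that have a span (88.1% of them); genes share libraries and are not independent. VAMP2 spans 3.80 kb, RAB3A 7.26 kb and SV2A 14.5 kb, whereas RAB3C spans 277 kb, RIMS2 755 kb and ERC2 960 kb. PCLO at 409 kb and SV2B at 203 kb are long genes that were lower. The part of these identities, mitochondrial transcripts, MALAT1 and span in the result was not tested.

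**Figure D3:**
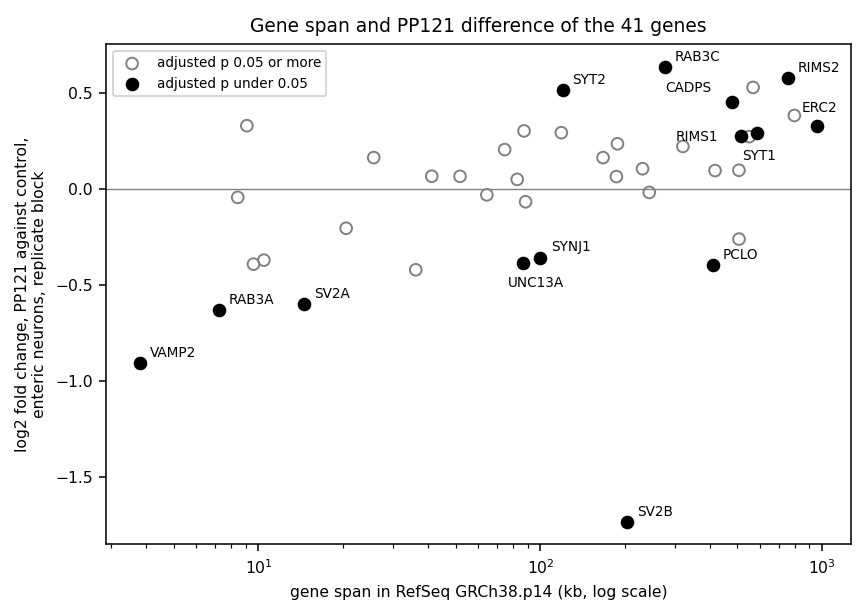
Gene span in kb (x axis, log scale) and log2 fold change of PP121 against control in enteric neurons with the replicate block (y axis) for the 41 genes; filled points passed at an adjusted p under 0.05. VAMP2, RAB3A and SV2A sit at the short end below 0, and RAB3C, RIMS2, CADPS and ERC2 at the long end above it.

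The promoters of genes that moved with PP121 are shown to let their composition be compared. RefSeq's promoter table (GRCh38.p14) held 35 of the 41 genes. Printed are the 250 bases before the start of CADPS, SYT2 and RIMS1, which were higher, and of RAB3A and PCLO, which were lower. For these genes the window lies outside the whole gene. The same holds for ERC2, SV2B, UNC13A and SYNJ1, which also passed and are not printed. Capitals mark the CCAAT box (CCAAT) and the GC box (GGGCGG) on either strand, searched without regard to overlap between motifs; the last capitals of CADPS begin a motif that runs past the printed stretch.
CADPS, chr3:62875417-62875666, minus strand: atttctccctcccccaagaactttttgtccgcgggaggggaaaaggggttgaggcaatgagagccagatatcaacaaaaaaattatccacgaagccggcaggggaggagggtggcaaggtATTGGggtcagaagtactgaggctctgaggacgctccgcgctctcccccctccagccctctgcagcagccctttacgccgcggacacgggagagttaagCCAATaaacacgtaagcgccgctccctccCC
SYT2, chr1:202710455-202710704, minus strand: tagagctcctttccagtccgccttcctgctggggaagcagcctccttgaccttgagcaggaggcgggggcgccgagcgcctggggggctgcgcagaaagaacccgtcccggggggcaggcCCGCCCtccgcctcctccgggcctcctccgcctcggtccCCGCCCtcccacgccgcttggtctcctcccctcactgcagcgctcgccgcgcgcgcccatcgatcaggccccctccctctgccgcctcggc
RIMS1, chr6:71886300-71886549, plus strand: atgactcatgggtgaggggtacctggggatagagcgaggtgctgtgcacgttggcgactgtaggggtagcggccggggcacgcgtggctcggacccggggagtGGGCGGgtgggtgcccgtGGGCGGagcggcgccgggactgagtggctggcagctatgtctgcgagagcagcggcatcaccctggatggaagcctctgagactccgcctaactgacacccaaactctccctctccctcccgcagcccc
RAB3A, chr19:18204043-18204292, minus strand: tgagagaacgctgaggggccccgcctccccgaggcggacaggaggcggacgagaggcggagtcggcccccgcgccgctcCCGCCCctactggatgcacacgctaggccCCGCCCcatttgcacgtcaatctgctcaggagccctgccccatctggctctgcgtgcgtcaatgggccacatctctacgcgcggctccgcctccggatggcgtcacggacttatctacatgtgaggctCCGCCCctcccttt
PCLO, chr7:83162885-83163134, minus strand: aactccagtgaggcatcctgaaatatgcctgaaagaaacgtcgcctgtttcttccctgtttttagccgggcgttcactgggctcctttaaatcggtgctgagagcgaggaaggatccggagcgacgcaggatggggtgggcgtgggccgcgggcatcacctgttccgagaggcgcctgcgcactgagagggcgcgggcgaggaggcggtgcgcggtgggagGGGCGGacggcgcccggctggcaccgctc
Over the window from 250 bases before to 50 after the start, the GC box was found in 26 of 35 promoters (74.3%), in 44.6% of all 27305 promoters and in 58.5% of the 15813 of protein-coding genes, and the CCAAT box in 6 (17.1%), 35.7% and 36.3%. The median GC content was 67.0% for the 35 and 62.7% for promoters of protein-coding genes. The core of the cAMP response element (TGACG) was found in 11 of 35 (31.4%), in 25.0% of all promoters and in 29.4% of protein-coding ones. The full element (TGACGTCA) was found in 0 of 35 and in 1.98% of all, and the RE1 motif of the repressor REST in 0 of 35 and in 0.0110% of all. The GC box was present in genes of both directions, SYT2 and RIMS1 as well as RAB3A and PCLO. It was also absent in both, from CADPS and RAB3C, which were higher, and from SV2A and SV2B, which were lower. The windows of RAB3C and SV2A lie inside the whole span of the gene, unlike those of CADPS and SV2B.

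In nitrergic neurons, annotated by the authors from imputed NOS1 and a module score, RIMS2, RAB3C, CADPS and ERC2 were higher after PP121 and VAMP2 and RAB3A lower with the replicate block. These neurons numbered 449, 230, 358 and 91 nuclei. Of 39 genes tested, 10 passed with the block (8 higher, 2 lower), where 10.5% of all genes passed. Without it 0 passed (0% of all genes), 13 had an unadjusted p under 0.05 and DESeq2 called 4. The share of all genes is not given for the last 2 counts. With the numbers of the annotation's sample names as the block 0 passed (10 with an unadjusted p under 0.05; 0% of all genes). RIMS2 stood at 522 and 694 CPM in control and 920 and 1109 CPM in PP121 nitrergic neurons (log2 fold change 0.87, SE 0.12), and RAB3C at 371 and 468 against 660 and 673 CPM (0.80, SE 0.12). CADPS stood at 249 and 211 against 363 and 359 CPM (0.77, SE 0.13). For these 3 genes the treatments do not overlap. ERC2 (0.74), RIMS1 (0.67), STXBP5 (0.39) and SYT1 (0.39) were also higher. VAMP2 fell from 54.3 and 35.0 to 24.3 and 12.8 CPM (−1.13, SE 0.25), and RAB3A from 16.7 and 14.7 to 6.47 and 2.32 CPM (−1.53, SE 0.43), the last on 2 UMIs. CADPS2 passed at 1.22, but its level in PP121 replicate 2 (118 CPM) came from 102 UMIs of which 64 were in 1 nucleus, and without that sample its difference, fitted without the block, was −0.25.

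Nitrergic and other neurons were not shown to differ in their response. In other neurons 0 of 41 genes passed without the block and 12 with it (8 higher, 4 lower), where 10.1% of all genes passed; with the annotation's numbers 0 did (3 with an unadjusted p under 0.05). RAB3C (0.67), SYT2 (0.59), RIMS2 (0.58), CADPS (0.47) and BSN (0.38), a scaffold, led the rises, and VAMP2 (−0.83), SV2A (−0.51), PCLO (−0.40) and SYNJ1 (−0.38) were the 4 falls. The interaction of PP121 with the nitrergic identity called 0 of 41 genes (7 with an unadjusted p under 0.05; 0 by DESeq2) and 0.147% of all genes. The smallest p values were those of ERC2 (0.45, SE 0.15), CPLX1 (1.06, SE 0.38) and RIMS1 (0.39, SE 0.15).

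In progenitors 38 of the genes could be tested, and 0 passed without the block (6 with an unadjusted p under 0.05; 0 by DESeq2). With it SYN2, a synapsin, and RIMS2 passed, where 1.72% of all genes did; with the annotation's numbers 0 did (4 with an unadjusted p under 0.05; 0.00494% of all genes). SYN2 stood at 18.1 and 15.9 CPM in control and 34.2 and 31.0 CPM in PP121 progenitors (log2 fold change 0.93, SE 0.21), and RIMS2 at 180 and 106 against 233 and 235 CPM (0.75, SE 0.18). Neither gene overlapped between the treatments. Progenitor 1 nuclei that lay nearest to the neuron profile were 2.22% and 0.493% in controls and 5.01% and 3.39% in PP121 samples. For progenitor 2 they were 5.45% and 1.76% against 3.88% and 1.99%. The part of these nuclei was not tested. The test of a differing PP121 effect in neurons and progenitors called 0 of 41 genes and 0% of 21787 genes (8 of 41 with an unadjusted p under 0.05; 0 by DESeq2), so that no difference between the classes was shown. Its smallest p values were those of SYN2 (−0.69, SE 0.17), SYT6 (−1.49, SE 0.40) and VAMP2 (−0.66, SE 0.19).

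The replicate number of the labels, which goes with the deposited day, was itself tied to several genes. With treatment as a term, 7 of 41 genes passed in neurons, where 9.49% of all genes did, and 0 passed without that term. UNC13B stood at 105 and 148 CPM in control replicates 1 and 2 and at 104 and 139 CPM in the PP121 samples (log2 fold change of replicate 2 over 1 of 0.51, SE 0.09). SV2C fell from 82.5 to 43.2 CPM and from 80.1 to 27.8 CPM (−1.15, SE 0.12). The share of neurons with the GABAergic identity moved with it, at 45.2%, 26.7%, 45.5% and 17.3%, while SV2C stood at 134, 121, 157 and 129 CPM within that identity and at 33.3, 11.2, 10.2 and 6.72 CPM outside it; the part of the identity share was not tested. CADPS2 (0.81), RIMS2 (0.35), RAB3C (0.34), UNC13C (−0.85) and VAMP2 (−0.68) completed the list. CADPS2 stood at 7.24, 10.8, 9.01 and 18.2 TMM-scaled CPM. Many of its UMIs in PP121 replicate 2 lay in a single nitrergic nucleus, as given above. UNC13C stood at 6.93, 6.17, 13.2 and 4.24 TMM-scaled CPM, so its difference lay mainly between the PP121 samples. Markers of mesenchymal nuclei, where CADPS2 was highest, moved with the replicate number in neurons as well: the 13 markers summed to 152, 200, 164 and 230 CPM, with all of them detected, and the collagen COL3A1 stood at 4.12, 17.9, 2.55 and 16.2 CPM. Their part in the CADPS2 result was not tested. In progenitors 5 genes were lower in replicate 2, where 2.99% of all genes passed: SYT5 (−1.38), UNC13C (−1.14), UNC13A (−0.99), CPLX2 (−0.93) and CADPS (−0.93). UNC13A, for instance, stood at 24.0 and 15.8 CPM in control and at 41.3 and 13.8 CPM in PP121 progenitors. Day and differentiation replicate cannot be told apart.

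For the 6 transmitter identities of the deposited annotation, 5 to 17 of the release genes passed against the other neurons. Of all genes, 4.8% to 14.9% passed. A nucleus can carry several identities, and each was compared with the remaining annotated neurons with the sample as a block. The identities rest on imputed expression, which borrows from other genes, so the called genes were also compared between neurons with and without a measured UMI of the transmitter's own genes, with no test. The called genes kept their direction in all 4 samples for 11 of 17 in the cholinergic, 11 of 14 in the GABAergic, 2 of 16 in the glutamatergic, 3 of 15 in the nitrergic, 1 of 5 in the serotonergic and 2 of 8 in the catecholaminergic comparison. Such a UMI can come from free RNA, so its share at 2000 UMIs a nucleus was set beside mesenchymal nuclei, whose median depth of 7227 to 8401 UMIs was like that of neurons (7210 to 8102). GAD1 or GAD2 was found in 8.52% to 23.3% of neurons and 0% to 2.5% of mesenchymal nuclei (20.1% to 49.2% and 0% to 7.50% unthinned). CHAT or SLC18A3 was found in 1.33% to 3.71% and at most 0.247%, SLC17A6 or SLC17A7 in 3.06% to 8.62% and at most 0.476%, and TH or DBH in 1.48% to 2.57% and at most 0.494%. NOS1 was found in 0.698% to 1.13% of neurons and in up to 0.741% of mesenchymal nuclei, and TPH1 or TPH2 in 0.719% to 1.44% and up to 1.43%, so NOS1 and TPH UMIs were not clear of background. Neurons with such a UMI also held more UMIs than the rest in all 4 samples for each of the 6 definitions.

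**Figure D4:**
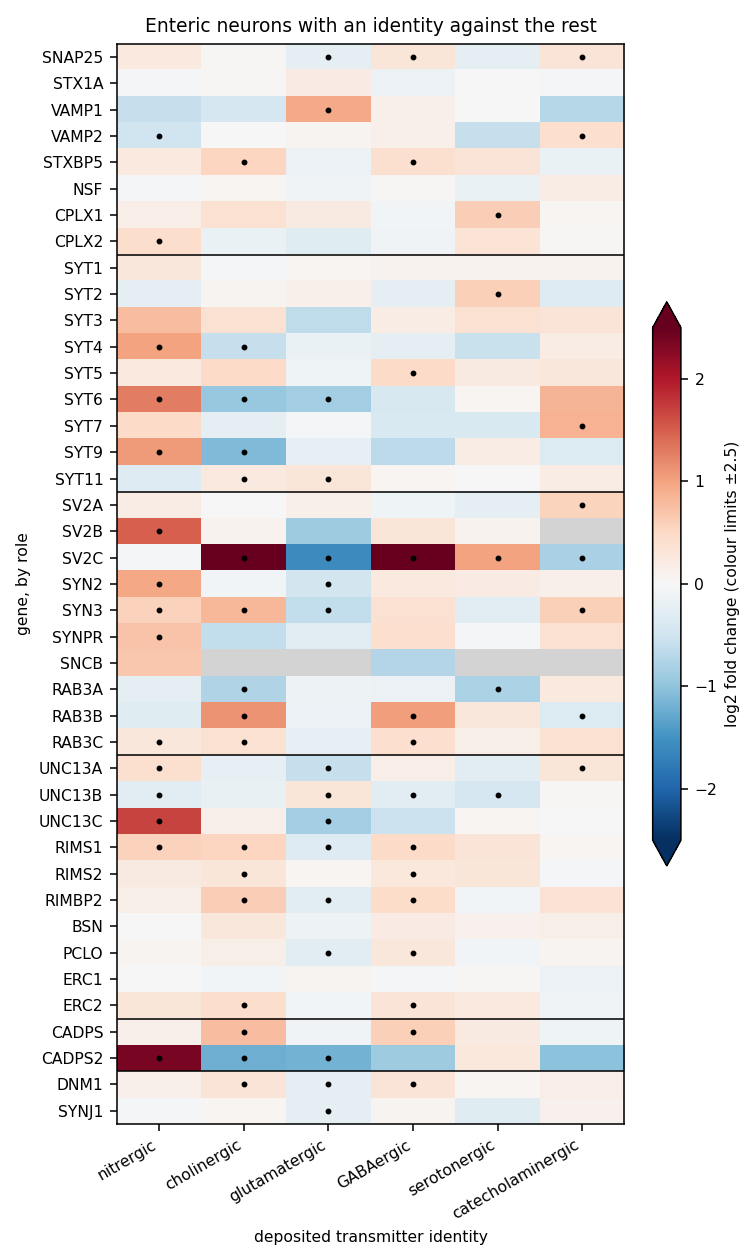
Log2 fold change of each of the 41 genes (rows, grouped by role) between enteric neurons with and without each deposited identity (columns), with the sample as a block; dots mark an adjusted p under 0.05 and grey cells were not tested. SV2C is high in the cholinergic, GABAergic and serotonergic columns and low in the glutamatergic and catecholaminergic ones, and CADPS2 and UNC13C are highest in the nitrergic column.

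SV2C showed the widest range. Neurons of the GABAergic identity held 134, 121, 157 and 129 CPM of SV2C and the others 33.3, 11.2, 10.2 and 6.72 CPM (log2 fold change 3.30, SE 0.29). The cholinergic identity held 146, 133, 179 and 139 CPM against 50.2, 18.3, 27.2 and 15.8 CPM (2.54, SE 0.19). The glutamatergic identity was lower, with 31.6, 16.6, 41.9 and 19.9 CPM against 101, 69.5, 104 and 48.8 CPM (−1.60, SE 0.12). In these 3 comparisons the levels with and without the identity do not overlap between any samples. The serotonergic identity was higher in each sample (1.01, SE 0.10) and the catecholaminergic lower (−0.82, SE 0.18). Values by measured UMIs had the same order in each sample: nuclei with GAD1 or GAD2, the GABA-making enzymes, held 115, 98.2, 136 and 87.5 CPM of SV2C and those without 39.8, 15.5, 32.0 and 9.40 CPM. Nuclei with a vesicular glutamate transporter (SLC17A6 or SLC17A7) held 34.6, 14.7, 23.2 and 7.13 CPM against 86.9, 50.2, 92.8 and 35.6 CPM.

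**Figure D5:**
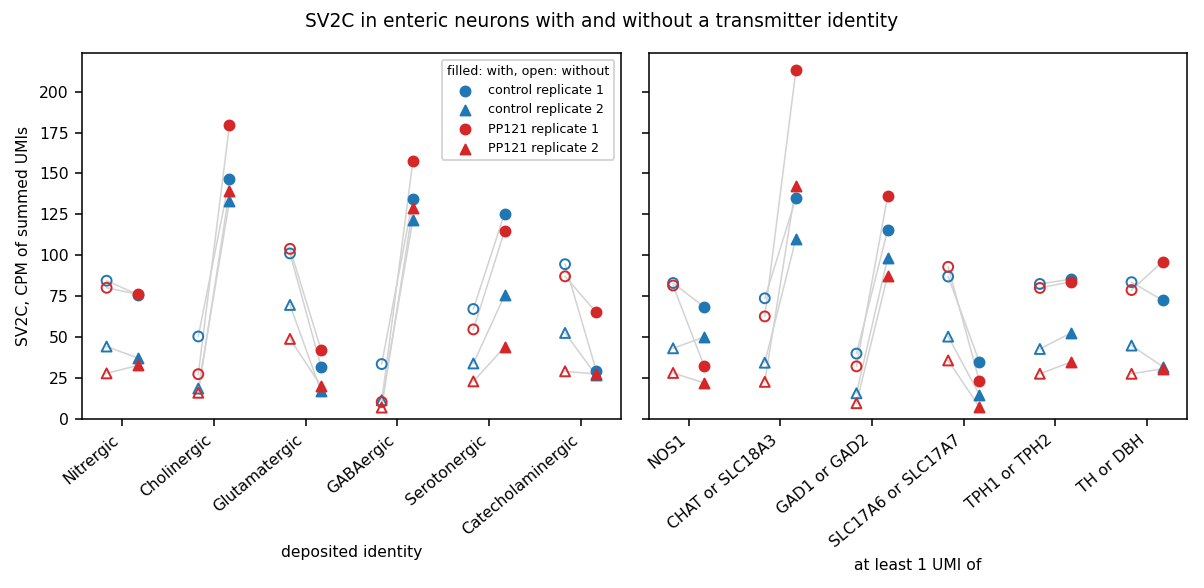
SV2C in CPM of summed UMIs in enteric neurons with (filled) and without (open) each identity of the deposited annotation (left) or at least 1 UMI of the named transmitter genes (right), joined by a line per sample. GABAergic and cholinergic neurons lie above the rest in all 4 samples by either definition and glutamatergic neurons below it, whereas NOS1 shows no common direction.

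The cholinergic and GABAergic comparisons are not independent, since 71.0% to 92.3% of cholinergic nuclei were also GABAergic, and their values are given side by side. In the cholinergic identity 12 genes were higher and 5 lower, where 11.5% of all genes passed. RAB3B, a vesicle GTPase, stood at 100, 116, 134 and 119 CPM against 64.5, 50.1, 55.1 and 57.6 CPM (log2 fold change 1.11, SE 0.10). SYN3 (0.82), CADPS (0.77) and RIMBP2 (0.61), a link between RIM and calcium channels, were higher as well, and all 4 were higher in 4 of 4 samples in nuclei with a CHAT or SLC18A3 UMI. CADPS2 (−1.23), SYT9 (−1.10), SYT6 (−0.95), RAB3A (−0.75) and SYT4 (−0.57) were lower, and by measured UMIs RAB3A was lower in 4 of 4 samples, SYT9, SYT6 and SYT4 in 3 and CADPS2 in 2. In the GABAergic identity 13 genes were higher and 1 lower (UNC13B, −0.26, also lower in 4 of 4 samples by measured UMIs), where 7.85% passed; 7 passed without PP121 replicate 1 or without control replicate 2. RAB3B stood at 92.8, 106, 119 and 99.4 CPM against 61.1, 47.5, 49.8 and 56.2 CPM (1.04, SE 0.11), followed by CADPS (0.60), SYT5 (0.49) and RIMS1 (0.49), and these 4 were higher in 4 of 4 samples in nuclei with a GAD1 or GAD2 UMI.

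In the glutamatergic identity most called genes were lower, 13 against 3, where 14.9% of all genes passed; 6 passed without control replicate 1 and 5 without control replicate 2. Besides SV2C, the falls included CADPS2 (−1.18), SYT6 (−0.87), UNC13C (−0.85) and SYN3 (−0.61), and SYN3 stood at 313, 300, 433 and 493 CPM against 563, 488, 556 and 683 CPM. Measured transporters gave another picture: SYN3, CADPS2 and SYT6 were higher in 4 of 4 samples in nuclei with an SLC17A6 or SLC17A7 UMI. SYT11 (0.30) and VAMP1 (0.94) were higher with the identity, and both were lower in all 4 samples in nuclei with such a UMI. Of the 16 called genes SV2C and PCLO had the same direction by both definitions in all 4 samples, and 8 had the opposite one.

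Nitrergic neurons were higher in 13 release genes and lower in 2, where 11.7% of all genes passed; 8 passed without control replicate 1. Members per nucleus at 2000 UMIs averaged 8.19, 8.07, 8.68 and 8.81 in nitrergic and 7.50, 7.22, 8.01 and 7.68 in other neurons. The Munc13 relative UNC13C stood at 15.3, 13.2, 31.1 and 13.9 CPM against 5.24, 4.71, 9.81 and 3.25 CPM (log2 fold change 1.70, SE 0.19). Synaptotagmins SYT6 (1.28), SYT9 (1.07) and SYT4 (1.00) were higher, at 19.9, 14.2, 17.5 and 15.1 CPM against 6.03, 9.08, 7.93 and 6.21 CPM for SYT6. VAMP2 (−0.51) and UNC13B (−0.29) were lower. CADPS2 was the highest, at 19.6, 21.8, 16.2 and 118 CPM against 4.51, 7.51, 6.06 and 7.20 CPM (2.37, SE 0.34), but 10 nuclei held 76.7% to 100% of its UMIs in each sample. Defined by at least 1 NOS1 UMI, which 52, 30, 42 and 20 nuclei held, only CADPS2 passed (2.46), where 1.03% of all genes did, while UNC13C and SYT9 were higher in 2 of 4 samples. In the list of 78 other release genes, 13 of 75 tested were higher with the deposited identity and 0 lower, among them RAB27B (1.77) and the endophilin SH3GL2 (1.25).

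The remaining identities differed in fewer genes. The serotonergic identity had 3 genes higher and 2 lower of 40 tested, a share near the 10.7% of all genes that passed. SV2C, CPLX1 (0.62) and SYT2 (0.61) were higher, and RAB3A (−0.79) and UNC13B (−0.42) lower. SYT2 stood at 68.6, 72.8, 77.1 and 90.2 CPM with the identity and at 43.4, 39.5, 52.1 and 70.7 CPM without it, and 1 gene passed without control replicate 1 and 2 without control replicate 2. The catecholaminergic identity had 6 higher and 2 lower, where 4.8% passed, but 0 passed without PP121 replicate 1 or without control replicate 2, DESeq2 called 1, and 0 passed without the sample as a block. SYT7, a slow calcium sensor, was higher at 0.88, SYN3 at 0.60, SV2A at 0.55, VAMP2 at 0.42, SNAP25 at 0.32 and UNC13A at 0.31, and SV2C and RAB3B (−0.34) were lower. VAMP2 stood at 84.3, 54.0, 45.4 and 25.5 CPM against 67.8, 34.9, 34.0 and 20.2 CPM, and was higher in 4 of 4 samples in nuclei with a TH or DBH UMI, as was SYN3, while the other 6 called genes had the direction of the identity in 2 or 3 samples.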

How the data were processed

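Nuclei were profiled with 10x 3′ v3.1 libraries. Per the study's methods the authors assigned UMIs with kallisto and bustools, while the submitters' processing notes name Cell Ranger, Seurat 4.0.4 and GRCh38; strand and intron handling is not stated. Each deposited count gives the UMIs of 1 gene in 1 nucleus. The deposited percent of mitochondrial counts per nucleus and the class and identity labels, which rest on the authors' imputed values and module score, were taken as deposited. Neurons annotated without a subtype were left out of identity comparisons.

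Counts were summed per sample and class and tested with edgeR 4.0.16 in R 4.3.3 (quasi-likelihood, TMM, filterByExpr, two-sided, Benjamini-Hochberg over all genes, 0.05). The SE given is the absolute log2 fold change over the square root of edgeR's F statistic. That statistic borrows variance across genes, so the SE is not a spread measured between replicates alone. Fits with both treatment and replicate number left a single residual degree of freedom, so their calls and SE rest largely on the borrowed variance. DESeq2 1.42.0 was an alternative. Counts by unadjusted p stand beside the share of all genes only for the unblocked fit of PP121 in neurons. Counts by DESeq2 or with a sample left out have no such share. Without it such counts are not results about the 41 genes as a set. CPM are scaled to the UMIs of the same nuclei, without length, so levels are not compared between genes. Same-numbered samples share a deposited day and deviated together from their group means (correlations across genes of 0.421 in neurons, 0.284 in progenitors, 0.208 in nitrergic and 0.411 in other neurons), so the replicate block stands beside the unblocked fit. UMI depth limits genes of few counts. Doublets were not called; the top 5% of nuclei by UMIs were left out as an alternative. On simulated counts for PP121 in neurons, 73% of 2-fold changes were recovered without the block and 100% with it. Of all simulated calls, those of the larger change included, 12.6% and 2.91% were false, and for nitrergic against other neurons 11.4% were. Each simulation took its spread from the fit it tested and held no replicate effect. It therefore cannot show whether the block or the pairing of samples is right. The block by the annotation’s sample names and the comparison of transmitter UMIs with other classes were added after the data were seen. The 41 genes, the further list and the tests were chosen with earlier results of these data known. Sample values are given for the 2 genes of each role group with the highest CPM and, in each fit, for up to 5 rises and 5 falls among called genes without overlap between groups, or the 3 smallest p; other genes, among them SYT1, RIMS1, UNC13A and SNAP25-AS1, were named after their values were seen.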

Additional observations from a re-analysis of the deposited data

How the results depend on the processing

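The direction and side of the threshold of single genes were kept in 963 results, 122 gained and 280 lost the threshold, and 5 reversed. The reversals were CADPS2 for PP121 in nitrergic neurons without PP121 replicate 2 (−0.25, and up to 2.67 without PP121 replicate 1), RAB3C for the replicate number without control replicate 1 and the treatment term (−0.069), and VAMP2 (0.00092), CPLX2 (−0.22) and SYNPR (−0.20) in nuclei with a NOS1 UMI. The cause was not tested. For PP121 in neurons (0 called), the replicate block gave 14, with DESeq2 5, with total counts 12, without the top 5% of nuclei 16 and with nearest-profile classes 10, and leaving out a sample 0 to 6, the 6 without PP121 replicate 1. In nitrergic neurons (0) the replicate block gave 10, with nearest-profile classes 6, DESeq2 4 and no filter 8, and leaving out a sample 0 to 5, the 5 without control replicate 2. In other neurons (0) these were 12, 5 and, without a filter, 4, and 0 to 3, the 3 without PP121 replicate 1. In progenitors (0) the replicate block gave 2, with nearest-profile classes 3, and no filter 1. The interaction with class (0) gave 3 without a filter and 0 to 1 with a sample left out, and that with the nitrergic identity (0) 0 to 2. For the replicate number in neurons (7), DESeq2 gave 3, no filter 11, total counts 4, no treatment term 0, and with a sample left out 0 to 1; in progenitors (5) no treatment term gave 0 and leaving out a sample 0 to 5. With the treatment term no sample could be left out, since no residual degree of freedom remained.

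Without the sample as a replicate block, the identity counts fell from 15 to 5 (nitrergic), 17 to 4 (cholinergic), 14 to 2 (GABAergic), 16 to 1 (glutamatergic), 5 to 0 (serotonergic) and 8 to 0 (catecholaminergic). DESeq2 gave 10 for glutamatergic, 3 for serotonergic and 1 for catecholaminergic neurons, and no filter 11 and 13 for the last 2. A NOS1 UMI gave 1 for nitrergic neurons. Leaving out a sample gave 8 to 15 (nitrergic, 8 without control replicate 1), 12 to 17 (cholinergic), 7 to 13 (GABAergic, 7 without PP121 replicate 1 or control replicate 2), 5 to 15 (glutamatergic, 5 without control replicate 2 and 6 without control replicate 1), 1 to 9 (serotonergic, 1 without control replicate 1) and 0 to 12 (catecholaminergic, 0 without PP121 replicate 1 or control replicate 2). Genes per neuron over progenitor 1 were 2.08 times at 2000 UMIs, 2.22 at 1000 and 1.91 at 4000 UMIs. A group left with 1 sample was assumed to vary like the others.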
